A study of Bos taurus with 20 samples.

Results

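The genes of 8 cell surface peptidases were read from the raw count table of bovine mesenchymal stem cell (MSC) clones by their symbols, ANPEP, ENPEP, MME, DPP4, FAP, LNPEP, ERAP1 and ECE1, out of 33063 named genes, and each had a row. The clones were each grown from 1 sorted cell of calf adipose tissue, in medium with serum and basic fibroblast growth factor, and were undifferentiated when RNA was taken. Of the clones, 10 were adipogenic (A), which formed lipid-laden adipocytes in a separate differentiation test, and 10 were non-adipogenic (N). Animals 17 and 20 gave 1 A and 1 N clone each, and animals 22 and 23 gave 4 of each, so clones of 1 animal are not independent of it. The A clones had also kept this ability in a second test after expansion and were picked for their high capacity, whereas N clones were those that failed the first, so the groups differ in how they were chosen as well. A clone stands for the progeny of a single cell and not for its tissue.

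Cell surface peptidases cut short peptides outside the cell, and so switch hormones and chemokines on or off, or change which receptor they can engage. Most of the 8 are zinc metallopeptidases. ANPEP (aminopeptidase N, the surface antigen CD13), ENPEP (aminopeptidase A), LNPEP and ERAP1 belong to the M1 family, which removes single residues from the amino end, whereas MME (neprilysin, CD10) and ECE1 (endothelin-converting enzyme) belong to the M13 family, which cuts inside peptides. DPP4 (CD26) and FAP are serine peptidases of one family that cut after proline. ERAP1 works mainly in the endoplasmic reticulum, where it trims peptides for MHC class I, and LNPEP moves between storage vesicles and the cell surface.

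The 20 libraries held between 14615493 and 43111345 reads counted in named genes, with medians of 16316703.5 in N and 16112862 in A clones. Levels are given as counts scaled to library size (cpm), and 3 counts in a library correspond to between 0.0764 and 0.216 cpm. The files give no transcript lengths, so levels are compared between clones and not between genes. Markers of mesenchymal cells summed to 23765 to 44361 cpm in N and 32585 to 54944 cpm in A clones. Collagen genes weighed most in these sums, with means in N clones of 10432 cpm for COL1A1 and 15535 cpm for COL1A2. The lowest levels of THY1 and NT5E were 0.395 and 0.508 cpm in N clones and 18 and 65.2 cpm in A clones. The sums thus do not show every marker in every clone. In these bulk libraries, fewer cells of a type and less RNA per cell cannot be told apart. Of the 8 genes, 5 had enough counts for the test across the table, and ENPEP, MME and DPP4 did not. Of these 5, ANPEP and LNPEP (2 genes) reached an adjusted p under 0.05 for A against N, whereas 20.6% of all 12900 genes tested did. ANPEP was the 1 member that also differed by at least 2-fold, against 5.76% of all genes tested. The study had picked ANPEP from these same libraries, so its difference here is not independent evidence.

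**Figure D1:**
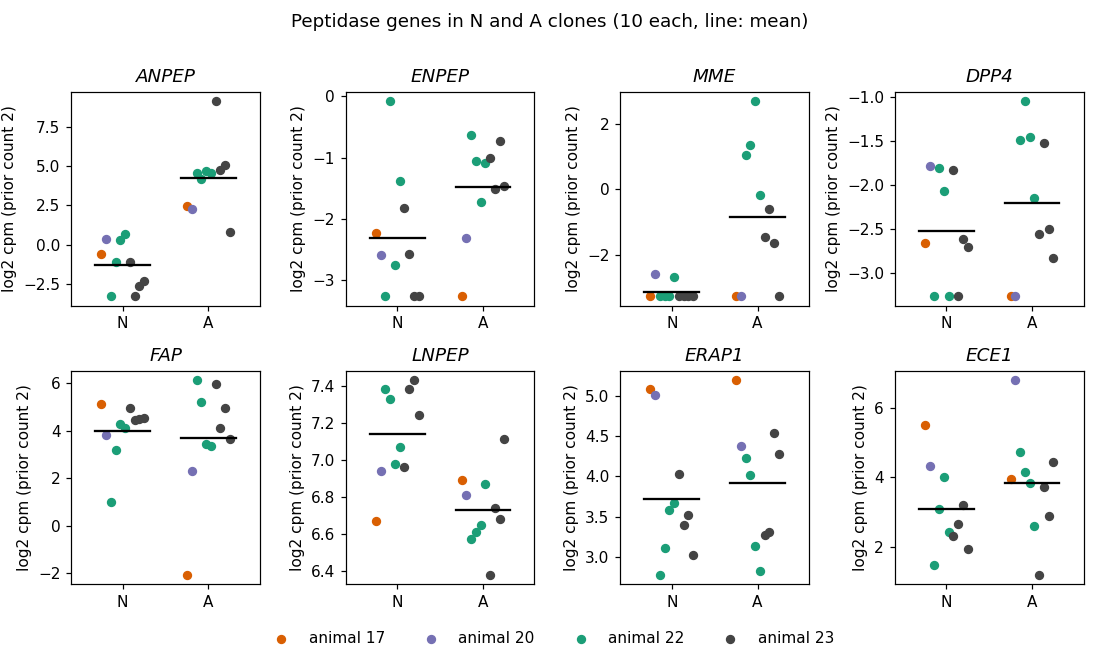
Level of each peptidase gene on the log2 scale (cpm with a prior count of 2) in the 10 N and 10 A clones, coloured by animal, with the group mean as a line and a separate vertical scale for each gene. Every A clone lies above every N clone for ANPEP, whereas the groups overlap for the other 7 genes.

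ANPEP removes neutral residues from peptides such as angiotensin III and enkephalins. Its level in N clones was 0 cpm at the lowest, 0.357 at the median and 1.5 at the highest, with 0 to 59 counts per clone. In A clones it was 1.61, 23.4 and 548 cpm, with 44 to 8360 counts. All 10 A clones lay above all 10 N clones, a separation in either direction found for 0.318% of all genes tested. The N clones averaged 0.52 ± 0.55 cpm and the A clones 70.9 ± 168 cpm (SD, 10 clones in each group). The log2 fold change was 6.01 with a standard error (SE) of 1.2 (edgeR's quasi-likelihood test with animal as a block, adjusted p = 0.00374).

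The A clones differed widely among themselves in ANPEP. The 4 A clones of animal 22 stood close together, between 17.8 and 25.8 cpm. In animal 23, clone 23-108 held 1.61 cpm, clones 23-62 and 23-68 held 26.4 and 33.5 cpm, and clone 23-14 held 548 cpm. The single A clones of animals 17 and 20 held 5.24 and 4.66 cpm, above the N clones of the same animals at 0.545 and 1.17 cpm. The difference of mean log2 cpm, A minus N, came to 3.04 for animal 17, 1.91 for animal 20, 5.34 for animal 22 and 7.25 for animal 23. ANPEP was thus higher in A clones in 4 of 4 animals. The N clones 23-10, 23-22, 23-23 and 23-74 held 6, 0, 1 and 2 counts, so the size of these differences depends in part on the prior count. Over all clones the difference of mean log2 cpm was 5.53 with a prior count of 2 and 6.18 with 0.5. The exact two-sided permutation test of ANPEP within animals gave p = 0.000102, the smallest its 19600 arrangements allow.

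A difference of the ANPEP effect between animals 22 and 23 did not pass the test over all genes. The interaction of condition and animal was 5.35 on the log2 scale (SE 2.12, unadjusted p = 0.0243, adjusted p = 0.49). Its size rested in large part on clone 23-14. Without that clone the interaction of ANPEP was 2.41 (SE 1.45), against 4.72 to 6.46 without any other single clone of these animals. None of the 5 members tested passed at an adjusted p under 0.05 in edgeR, where 0.031% of 12915 genes were called. At an unadjusted p under 0.05 ANPEP was the 1 member, beside 9.06% of those genes. The fold change of ANPEP kept its call without any single clone, between 5.13 (without clone 23-14) and 6.54, but lost it with counts summed per animal and condition (4.58, adjusted p = 0.289) and without animal 23. In the latter case the log2 fold change was 4.17 with an adjusted p of 0.0539, against 6.34e-12 to 0.289 over all alternatives.

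Markers of other cell types that can hold ANPEP moved with the groups in part. The 10 myeloid markers summed to 2.1 to 15.1 cpm in N and 3.8 to 23.4 cpm in A clones, and both of those that could be tested, CD68 and MRC1, rose. With no filter on low counts, CSF1R and CD14 were also called (edgeR's quasi-likelihood test), where 11.8% of 23383 genes were. CSF1R was at 0 to 0.255 cpm in N and 0.476 to 2.38 cpm in A clones (log2 fold change 3.13, adjusted p = 0.00268). That of CD14 was 2.75 (adjusted p = 0.0417). The other low-count markers of the list were not called. Among them PTPRC, which defines leukocytes, had 1 count in all N and 7 in all A clones. The A clone with the most ANPEP, 23-14, held the lowest myeloid sum of the A clones, 3.8 cpm, and the highest endothelial sum of all 20 clones, 106 cpm. Most of that endothelial sum was ERG, which reached 94 cpm in A clones. CLDN5 had no count in any clone, and CDH5, KDR and TIE1 did not exceed 0.327 cpm in A clones. PECAM1 and VWF reached 16.3 and 13.4 cpm in A clones. Of 9 markers of the kidney proximal tubule, another site of ANPEP, 3 had no count in any clone, SLC34A1 and SLC22A6 among them. Of 3 that could be tested, PAX8 rose by 2.59 on the log2 scale and 2 were not called. The sums of this list were 9.32 to 239 cpm in N and 29.2 to 113 cpm in A clones. Of 5 endothelial markers tested, 2 rose (sums of the whole list 1.47 to 47.3 cpm in N and 13.9 to 106 cpm in A clones), and of 7 smooth muscle and pericyte markers 3 rose (1085 to 9976 and 4341 to 11063 cpm). Of 10 proliferation markers 7 fell and none rose (126 to 618 and 34.4 to 370 cpm). The called markers of each list stand beside 20.6% of all 12900 genes tested, called in either direction. The part of these markers in the ANPEP result was not tested.

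MME cuts bradykinin, natriuretic peptides and substance P, and serves as a surface marker of stromal progenitors. It was nearly absent from N clones, with 1 count in clone 20-15, 2 counts in clone 22-18 and none in the other 8. Counts were held by 7 of 10 A clones, 54, 39, 97 and 13 in the A clones of animal 22 (22-11, 22-16, 22-27 and 22-121) and 4, 9 and 3 in clones 23-14, 23-62 and 23-68. The highest level was 6.37 cpm. Summed over clones, there were 219 counts in A and 3 in N clones, a ratio of 80 with a 95% counting interval of 27 to 391, which covers counting error only.

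With no filter on low counts, MME differed by a log2 fold change of 5.74 (SE 1, edgeR's quasi-likelihood test, adjusted p = 0.00218, range over the alternatives 3.69e-05 to 0.432). In that fit 11.8% of 23383 genes were called, and 3 of the 8 members, ANPEP, MME and LNPEP. The call was lost without animal 22 (log2 fold change 3.14, adjusted p = 0.213) and without animal 23 (5.81, adjusted p = 0.0956), and also with summed counts (5.28) and in animal 23 alone (5.17). The difference of mean log2 cpm, A minus N, was 4.35 for animal 22 and 1.52 for animal 23, but 0.00 for animal 17 and -0.67 for animal 20. The 3 A clones with no MME count were the 3 with the least ANPEP, between 1.61 and 5.24 cpm. The 7 with MME counts held at least 17.8 cpm of ANPEP. Among those 3 were clones 17-57 and 20-106, the only A clones of animals 17 and 20. Animal and ANPEP level thus cannot be told apart there. The order within the 7 clones with MME counts was not shared, since MME was highest in clone 22-27 and ANPEP in clone 23-14.

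**Figure D2:**
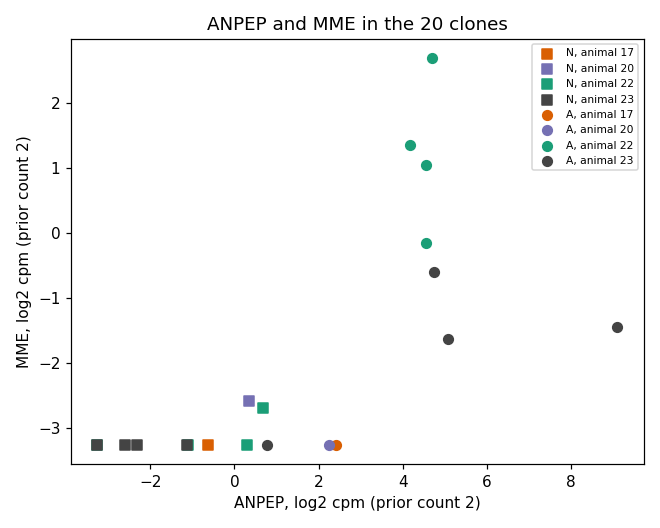
Level of MME against that of ANPEP in the 20 clones, both as log2 cpm with a prior count of 2, with squares for N and circles for A clones, coloured by animal. The 7 A clones with MME counts lie to the right at 17.8 cpm of ANPEP or more, and the other 3 A clones lie with the N clones at the bottom edge.

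ENPEP, which converts angiotensin II to angiotensin III, was low in both groups. Its lowest, median and highest levels were 0, 0.0623 and 0.84 cpm in N clones and 0, 0.311 and 0.542 cpm in A clones. No A clone lay above every N clone, and the highest value was that of N clone 22-9. Summed counts were 56 in A and 33 in N clones, a ratio of 1.86 with a 95% counting interval of 1.19 to 2.95. The log2 fold change of ENPEP with no filter was 0.96 (SE 0.679, adjusted p = 0.374). The exact permutation test within animals gave an unadjusted p of 0.0414 for ENPEP. The same test gave 0.00204 for MME, 0.00163 for LNPEP, 0.153 for ECE1, 0.33 for DPP4 and 0.396 for ERAP1, none adjusted for the number of members.

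DPP4, which trims incretins and the chemokine CXCL12 and marks early progenitors in adipose tissue of other species, had few counts in both groups. No N clone held more than 3 counts and no A clone more than 7. The ratio of summed counts was 1.9 (26 against 15, 95% counting interval 0.97 to 3.86), and the log2 fold change was 0.60 (SE 0.742, adjusted p = 0.613). Among 7 testable markers of DPP4-type progenitors other than DPP4 itself, ANXA3 rose, CD55 and CD34 fell and 4 were not called, beside 20.6% of all genes tested that were called. The study had picked CD55 and CD34 from these same libraries, so their differences are not independent evidence.

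FAP, a serine peptidase of activated fibroblasts that is the closest relative of DPP4 among the members, had counts in every clone. Its level was 1.92, 20.7 and 35 cpm in N clones and 0.136, 14.8 and 70.1 cpm in A clones (lowest, median, highest). The groups overlapped, with 3 A clones above and 1 below all N clones, and the log2 fold change was 0.29 (SE 0.681, adjusted p = 0.787). The animals went in opposite directions. A minus N on the log2 cpm scale came to -7.19 for animal 17 and -1.51 for animal 20, with 1 clone of each kind, but to 1.38 for animal 22 and 0.05 for animal 23. In animal 17 the A clone held 2 counts of FAP and the N clone 643. In RefSeq's annotation of the ARS-UCD2.0 assembly, a later build than that of the files, FAP and DPP4 lie on either side of GCG.

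LNPEP, which cuts oxytocin, vasopressin and angiotensin IV and travels with the glucose transporter GLUT4, was lower in A clones by a small amount. It was 102, 143 and 173 cpm in N and 83.2, 104 and 138 cpm in A clones. The 4 lowest A clones lay under the whole N group, and the rest overlapped. The log2 fold change was -0.41 (SE 0.107, edgeR's quasi-likelihood test, adjusted p = 0.0153), below the 2-fold threshold. The difference came to -0.52 for animal 22 and -0.53 for animal 23, but to 0.22 for animal 17 and -0.14 for animal 20.

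The call of LNPEP held without any 1 clone (-0.48 to -0.36, largest adjusted p 0.0325). It was lost with counts summed per animal and condition (-0.20), without animal 22 (-0.33) or 23 (-0.34), in animal 22 (-0.53) or 23 (-0.51) alone, and without N clones 22-5 and 22-9 (-0.33, adjusted p = 0.0577, against 0.00272 to 0.583 over the alternatives). Those were the libraries with mesothelial markers at 9419 and 6741 cpm, against 8.58 to 1131 cpm in the other 18. The part of these cells in the result was not tested. Of the partners of the vesicle that carries LNPEP, VAMP2 rose by 0.50 (adjusted p = 0.00819), SORT1 and TBC1D4 were not called, and SLC2A4, which encodes GLUT4, had too few counts for the test. ERAP1 and LNPEP lie beside each other with ERAP2 between them, in the same RefSeq annotation.

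ERAP1 did not pass the test. It was 6.78, 11.6 and 33.8 cpm in N and 7, 17.4 and 36.4 cpm in A clones, and the log2 fold change was 0.25 (SE 0.225, adjusted p = 0.434). Its highest levels in both groups came from the clones of animal 17, 33.8 cpm in N and 36.4 cpm in A.

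ECE1, which makes active endothelin from its precursor, varied widely within both groups. It was 2.71, 7.33 and 45.4 cpm in N and 2.23, 14.9 and 110 cpm in A clones, and the groups overlapped. The log2 fold change was 0.87 (SE 0.44, adjusted p = 0.163). The highest A value came from clone 20-106 and the lowest from 23-14, the clone with the most ANPEP, and the difference came to 2.46 for animal 20, 1.08 for animal 22 and 0.53 for animal 23, but to -1.53 for animal 17.

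**Figure D3:**
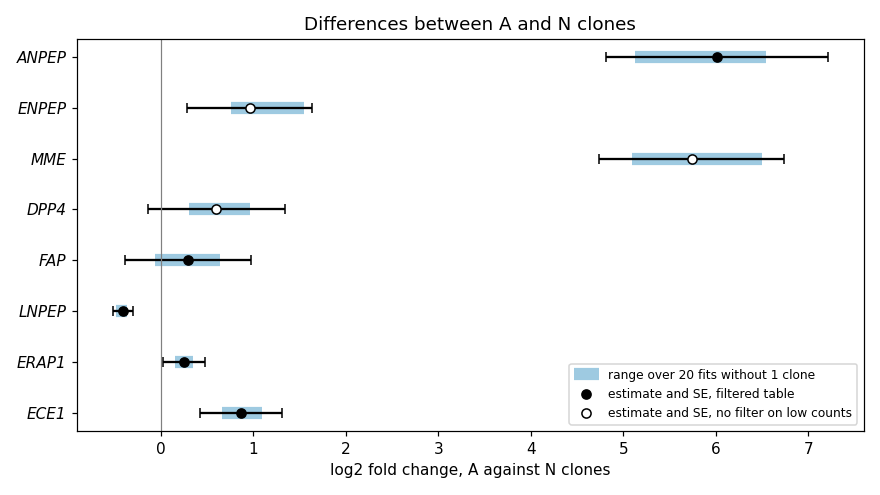
Log2 fold change between A and N clones for the 8 peptidase genes, with SE as bars and, as a band, the range over fits that left out 1 clone each. Open points are estimates from the fit with no filter on low counts, and the estimates of ANPEP (6.01), MME (5.74) and LNPEP (-0.41) had an adjusted p under 0.05.

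Related genes were counted from lists of other peptidases and of their peptides, receptors and partners. Over all lists 13 of 57 genes tested were called (22.8%), a share near the 20.6% of all genes tested, so the counts below set no list apart. Their medians stand beside -0.01, the median log2 fold change of all genes tested. Of 6 other M1 aminopeptidases tested, none rose and 2 fell, where 20.6% of all genes were called (median -0.40), NPEPPS by 0.46 and LTA4H by 0.61 on the log2 scale. Both were chosen after their values were seen, since neither reached 2-fold. The 1 testable member of the M13 list, ECE2, rose by 0.81 (SE 0.118, adjusted p = 0.000674), with 9 of 10 A clones over the whole N group. Of 10 other prolyl peptidases, 9 were not called (median -0.02). The exception was DPP8, a cytosolic relative of DPP4, which fell by 0.40 (SE 0.0663, adjusted p = 0.0015), and all 10 A clones lay below all N clones (76.3 to 99.7 cpm in N and 55.1 to 71.9 cpm in A). Groups that do not overlap, in either direction, were found for 0.318% of all genes tested. ECE2 and DPP8 were likewise chosen after their values were seen.

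Among 10 other membrane and secreted peptidases that could be tested, 1 rose, 1 fell and 8 were not called, again beside 20.6% of all genes (median 0.09). Carboxypeptidase M, whose gene symbol is CPM, removes basic residues from the carboxyl end of kinins and sits at the surface like ANPEP. Its level was 0.059, 1.27 and 13.5 cpm in N and 6.3, 18.2 and 49.4 cpm in A clones, and 6 A clones exceeded the whole N group. The log2 fold change came to 3.22 (SE 0.787, adjusted p = 0.0106), higher in A clones in 4 of 4 animals. Carboxypeptidase D (CPD), which fell by 0.67 (adjusted p = 0.0178), was chosen after its value was seen.

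The list of peptides that these enzymes cut, and of their receptors, held called genes in both directions. Of 36 genes in the list, 17 could be tested, 3 rose, 2 fell and 12 were not called, beside 20.6% of all genes called (median 0.22). Both endothelin receptors rose. EDNRB was at 0, 2.26 and 16 cpm in N and 3.19, 39.1 and 64.4 cpm in A clones (log2 fold change 3.60, SE 0.887, adjusted p = 0.0112), and EDNRA at 0.282, 11 and 50 cpm in N and 18.5, 38.9 and 58.6 cpm in A clones (1.90, SE 0.508, adjusted p = 0.0166). In animal 20, however, the A clone was lower than the N clone for both, by 0.40 and 0.95 on the log2 scale. ATP6AP2, the prorenin receptor, rose by 0.50.

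NPR3, the clearance receptor that takes up natriuretic peptides, was at 198, 477 and 1277 cpm in N and 15.1, 32.7 and 287 cpm in A clones. It fell by 2.79 on the log2 scale (SE 0.499, adjusted p = 0.00204), with 7 A clones under the whole N group. NPY1R, a receptor for neuropeptide Y, which DPP4 and FAP can cut, fell by 3.64 (SE 0.701, adjusted p = 0.00312) from 0.926, 10.8 and 58.2 cpm in N to 0.0609, 0.41 and 5.53 cpm in A clones. Both were lower in A clones in 4 of 4 animals. Of 13 testable partners of the peptidases, 2 rose and 11 were not called, beside the same 20.6% (median 0.06). PLAUR, the urokinase receptor that associates with FAP and integrins at the membrane, rose by 2.44 (SE 0.516, adjusted p = 0.00513), from 2.6, 28.2 and 95.5 cpm in N to 47.7, 154 and 550 cpm in A clones.

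**Figure D4:**
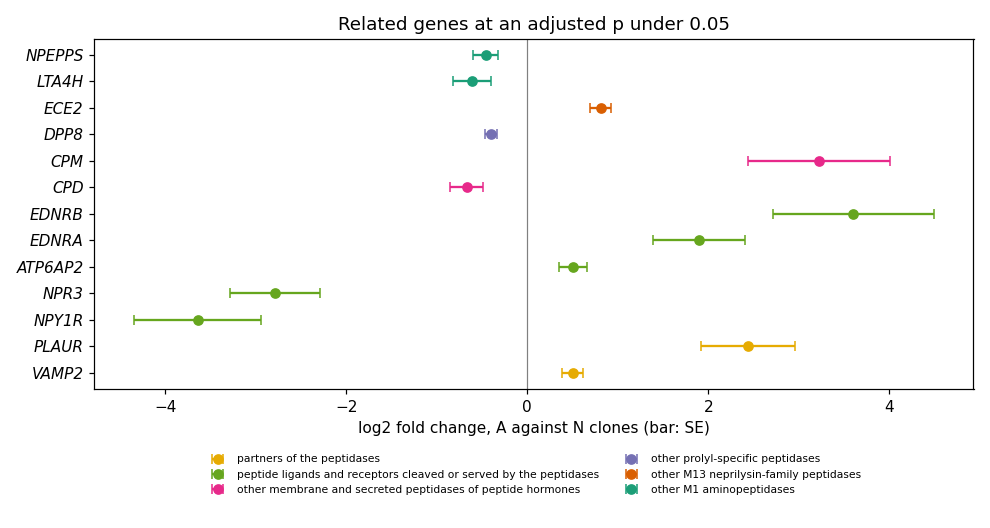
Log2 fold change between A and N clones with SE for the 13 related genes at an adjusted p under 0.05, coloured by list. Points to the right were higher in A clones, with EDNRB (3.60) and CPM (3.22) farthest to the right and NPY1R (-3.64) farthest to the left.

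The genes whose levels went most closely with ANPEP were sought over the 10 A clones only, on log2 cpm, as a description. The 5 with the highest Pearson r were ELOVL4 (r = 0.930), TMED7 (0.921), ARPP19 (0.912), VASH1 (0.908) and TBC1D2 (0.905). Without clone 23-14 the values were 0.818, 0.919, 0.812, 0.872 and 0.871, and Spearman's rho over all 10 was 0.806, 0.806, 0.745, 0.648 and 0.697. Of these, TBC1D2 was the 1 gene that differed between A and N clones (log2 fold change 1.22, SE 0.311, adjusted p = 0.0131). Among the other members tested, r was 0.550 for FAP (0.487 without clone 23-14), -0.535 for ERAP1 (-0.497), -0.749 for ECE1 (-0.532) and -0.873 for LNPEP (-0.800). The clones share animals, and 4 came from each of animals 22 and 23.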

How the data were processed

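RNA of 20 clones was sequenced from stranded libraries as paired reads. Per the submitters' processing notes, the authors used bcl2fastq 2.20, Trimmomatic 0.36, STAR 2.5.2b, featureCounts of Subread 1.5.2 and ARS-UCD1.2, and deposited raw counts of unique reads within exons, per gene and clone. Whether strand was used in counting is not given in the sources used here, so overlapping or antisense genes may share counts. One row without a gene name (0.113% to 0.333% of counts) was left out. Depth is given in the report, and intervals cover counting error only.

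The deposited counts were analysed in R 4.3.3 with edgeR 4.0.16 (TMM, filterByExpr on condition, robust quasi-likelihood F test, animal as a block, Benjamini-Hochberg over 12900 genes), and called at an adjusted p under 0.05, and at least 2-fold where stated. Alternatives used DESeq2 1.42.0, limma 3.58.1 and other filters, scalings and subsets. SE is the log2 fold change over the square root of F, with a prior count of 2 for log2 cpm. The fits were tested on simulated data. Deviations from the group means of A and N clones of 1 animal correlated by 0.253, 0.193, 0.241 and 0.44 in animals 17, 20, 22 and 23, and the labels give the animal. P-values measure the spread between clones. The members and lists were chosen with earlier results of these data known. Named genes were all members, from each list up to 3 genes per direction with the lowest adjusted p that passed both limits, and the 5 genes most like ANPEP. Other genes named in the text fall outside this rule, among them ATP6AP2, VAMP2 and PAX8, and count as chosen after their values were seen.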

Additional observations from a re-analysis of the deposited data

Results flagged for a closer look

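In each group of 10 clones, the gap between the lowest or highest clone and its neighbour was divided by the group's range on the log2 scale. The gap passed Dixon's 95% critical value in 3 of 16 groups. Chance would give 0.8 if the clones were independent and their log2 levels normally distributed. However, clones share animals, the same clones recur for every gene, and some groups hold tied low counts. The 3 groups are thus not read as an excess over chance. A share of such groups over all genes was not taken.

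In ANPEP, A clone 23-14 stood above the other A clones, at 548 cpm against 33.5 in the next clone, a gap of 0.484 of the range. In FAP, N clone 22-5 lay below the others, at 1.92 cpm against 9.06 in the next, N clone 22-9 (gap 0.529). A clone 17-57 lay below the other A clones in FAP, with 2 counts and 0.136 cpm against 4.8 cpm in clone 20-106 (gap 0.531).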

How the results depend on the processing

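The count of peptidase genes at an adjusted p under 0.05 was 2, and became 1 with at least 10 counts in every clone (LNPEP), without animal 22 (ANPEP), in animal 23 alone (ANPEP) and without N clones 22-5 and 22-9 (ANPEP, chosen after seeing the data), and 0 with counts summed per animal and condition or without animal 23. Summed counts gave 0 genes of the whole table (edgeR's quasi-likelihood test, 2243 at an unadjusted p under 0.05), and the table without animal 23 gave 32, so these sets also limit all genes. The count past both thresholds was 1, and became 2 with no filter and in animal 22 alone (ANPEP and MME) and 0 when 10 counts were required of each clone, with summed counts or without animal 23. The log2 fold change of ANPEP was 4.58 with summed counts (adjusted p = 0.289) and 4.17 without animal 23, and 5.13 to 6.54 without single clones, where both counts stayed at 2 and 1. Without the replicate block it was 6.98, and no call of a member changed, the unfiltered calls included. Directions turned for FAP, at -1.02 with summed counts, -0.62 without animal 22, -0.06 without A clone 22-11 (range -0.06 to 0.64 over single clones), -0.14 without N clones 22-5 and 22-9 and -0.30 as a difference of mean log2 cpm (exact permutation p = 0.803), and for DPP4, at -0.42 without animal 22. No member was called in the interaction under any of 17 settings. The filter of at least 10 counts in every clone left ANPEP out, since some N clones held 0 counts. Its absence from both counts there was thus fixed by the filter and is not a failed test. The cause of the other changes was not tested. ENPEP, MME and DPP4 had too few counts to pass the filter.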

Other observations

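Genes of the related lists that the filter on low counts left out were looked at in the fit of 23383 genes, in which 11.8% were called at an adjusted p under 0.05. Of 32 such genes with at least 1 count, 7 rose in A clones and 0 fell, each with low levels. Calls among all 10483 genes that the filter left out lay mostly in the same direction, 5.49% higher and 0.591% lower in A clones. AGTR1, the main receptor for angiotensin II, had 4 counts in N and 108 in A clones, with counts in 9 of 10 A clones, and a log2 fold change of 4.68 (SE 0.771, edgeR's quasi-likelihood test, adjusted p = 0.00151). The oxytocin precursor gene OXT had no count in N clones and 35 in A clones, and its receptor OXTR had 4 and 21. The endothelin ligand EDN3 had 16 counts in N and 87 in A clones. The others were CPZ, ECEL1 and the gene listed as FOLH1B, whose RefSeq symbol is FOLH1, and these 7 were picked with their values known. With so few counts, these values rest on single clones to an extent that was not tested.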
